A study of Mus musculus with 6 samples.

Results

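The transcripts of 10 genes of the canonical Wnt pathway, *Axin2*, *Lef1*, *Tcf7*, *Tcf7l1*, *Tcf7l2*, *Sp5*, *Cdx1*, *Nkd1*, *Dkk1* and *Wnt3*, were examined in mouse embryonic stem cells (ESCs) with and without overexpression of *Dppa3*, a maternal gene. The members were taken by gene symbol from an mRNA-seq table of 19489 genes, and each of the 10 symbols matched 1 row. The study compared ESCs carrying a *Dppa3* overexpression vector with control ESCs, in 3 libraries each. Libraries 1 and 2 of each genotype form pairs by their number, and the third pair (Con-D7 and OE-D7) carries the label D7, which no source explains, while the study's own averages of libraries 1 and 2 carry the label D0.

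The control group (Con) is labelled wild type, and the study's methods describe its cells as transfected with the empty vector. The overexpression group (*Dppa3* OE) received the mouse coding sequence under the CAG promoter, a strong promoter active in most cell types. The methods describe both stable lines, from colonies picked after puromycin selection, and transiently transfected cells, and do not say which of them, how many colonies, or which ESC line (J1 or D3) gave these libraries. All groups were grown in medium with serum and LIF, and no inhibitor of GSK3, which would act on the Wnt pathway, is listed. The strain label differs for each of the 6 libraries and runs in sample order. Ages do not apply to these cultured cells, and the labels do not say whether cultures were separate, although the study's methods state in general that results came from several independent experiments, so the p-values reflect only how far these libraries spread, which may be technical.

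In the canonical Wnt pathway, secreted Wnt proteins bind Frizzled and Lrp receptors, which stops a destruction complex built on Axin and Apc from degrading beta-catenin. Beta-catenin then binds Tcf and Lef factors on DNA and activates their targets, several of which, such as *Axin2*, *Nkd1* and *Dkk1*, feed back to dampen the signal. In mouse ESCs, Tcf7l1 (also called Tcf3) represses genes of naive pluripotency, and Wnt signalling relieves that repression.

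Tcf and Lef factors bind a short element whose core is commonly written CTTTGAT or CTTTGAA, and these letters were looked for from 250 bases before to 50 bases after the annotated transcription start, on both strands (ATCAAAG and TTCAAAG on the opposite one). RefSeq sequences of build GRCm38.p6 held such a window for 9 of the 10 genes. Windows with a match were found for *Sp5* and *Dkk1*, each on the strand of the gene. They are shown because both genes are known Wnt targets and *Dkk1* was the member with the largest difference between libraries. The *Sp5* stretch is chr2:70474808-70474837 on the plus strand, with the match starting at position -104, and the *Dkk1* stretch is chr19:30549595-30549624 on the minus strand, with the match at position -117, where 0 is the annotated start and capitals mark the match.
Sp5: ggcaaggccccCTTTGATcaggaaaatcca
Dkk1: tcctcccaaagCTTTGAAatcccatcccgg
Of 32851 such windows in the mouse genome, 3.73% held the first form, 5.14% the second and 8.65% at least 1 of them. The windows of *Axin2*, *Lef1* (4 starts), *Tcf7* (2 starts), *Tcf7l1*, *Tcf7l2* (2 starts), *Nkd1* and *Wnt3* did not hold these letters, which says nothing about elements elsewhere in the genes.

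Depth was even, with 17408954 to 18176939 estimated counts per library. *Dppa3* averaged 4.99 ± 1.56 FPKM in Con-1 and Con-2 and 278.8 ± 0.02 FPKM in OE-1 and OE-2 (SD, n = 2 libraries each), and was at 26.22 and 130.96 FPKM in Con-D7 and OE-D7, a 4.99-fold difference. FPKM scales the fragments of a gene by transcript length and library depth. In the D7 pair the summed FPKM of 12 ESC markers was 3980 to 4141 against 4385 to 5018 in the other libraries. *Pou5f1*, *Esrrb*, *Klf4* and *Utf1* were called lower there in edgeR, where 3.06% of all genes tested were. With each pair summed to 1 sample 0 of the 12 were called, but that fit called only 10 of 13809 genes lower. *Dppa5a* made up much of the ESC marker sum and was at 2083 and 2268 FPKM in Con-D7 and OE-D7 against 1238 to 1701. Without it the sum was 1713 to 2058 against 3147 to 3317 FPKM. ESC markers were thus abundant in every library. Summed markers of trophectoderm were at 711 to 1262 FPKM in the D7 pair against 39.15 to 64.65, and those of fibroblasts or feeder cells at 432 to 725.5 against 269.9 to 289.2. Of the trophectoderm markers that reached the minimum mean of 0.5 FPKM without the D7 pair, 4 of 6 were called higher in that pair in edgeR. Of the fibroblast markers 3 of 7 were, where 6.77% of all 13809 genes tested were called higher. Another 2 and 3 markers reached the minimum only through the D7 pair and had to differ. The fibroblast genes called were *Acta2*, *Tagln*, *Postn* and 3 collagen genes. *Fn1* was also above the others (165.53 and 190.42 against 109.57 to 128.72 FPKM) without being called, *Thy1* was below them (22.95 and 20.97 against 30.84 to 52.99 FPKM), *Vim* was at 70.08 FPKM in Con-D7 and 113.84 FPKM in OE-D7 against 92.27 to 129.23 FPKM, and *Lum* and *Dcn* did not exceed 0.21 FPKM in any library. Primitive endoderm markers summed to 39.37 to 70.51 FPKM in the D7 pair against 20.64 to 24.53, mesendoderm markers to 7.24 to 12.54 against 3.99 to 6.96, primed epiblast markers to 85.54 to 137.6 against 81.84 to 101.9, and neural markers to 38.09 to 41.25 against 52.87 to 107.2. The primed epiblast sum of OE-D7 lay within the range of the unlabelled libraries, and 0 of 4 tested mesendoderm genes were called in edgeR, while the other sums did not overlap. Of 6 tested primitive endoderm genes 3 were called higher, *Col4a1*, *Dab2* and *Gata4*. *Col4a1* made up most of that sum in the D7 pair (27.76 and 51.44 against 5.54 to 9.75 FPKM). *Lama1* was called lower (3.21 and 5.04 against 10.33 to 12.1 FPKM). Of 3 tested neural genes *Nes* was called, as higher (7.24 and 7.18 against 3.41 to 4.57 FPKM). *Tubb3* made up most of the neural sum (27.34 and 30.89 against 42.92 to 99.78 FPKM). The part of these lists in the Wnt results below was not tested. In such bulk samples, fewer cells of a type and less RNA per cell cannot be told apart.

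Among the 10 genes, the Tcf/Lef factors *Tcf7* and *Tcf7l1* were the most abundant per transcript length. Over the 4 libraries without the D7 label, *Tcf7* averaged 28.3 ± 2.21 FPKM and *Tcf7l1* 17.5 ± 7.78 FPKM, followed by *Axin2* (4.84 ± 0.96 FPKM) and *Cdx1* (3.72 ± 0.87 FPKM). *Tcf7l2* (1.72 ± 0.34 FPKM), *Lef1* (1.62 ± 0.94 FPKM) and *Nkd1* (1.00 ± 0.57 FPKM) came next (SD, n = 4 throughout). *Sp5* (0.32 ± 0.10 FPKM), *Dkk1* (0.26 ± 0.07 FPKM) and *Wnt3* (0.10 ± 0.05 FPKM) lay below the minimum mean of 0.5 FPKM used for testing. The ranges of *Tcf7* and *Tcf7l1* overlapped, as did those of *Axin2* and *Cdx1*, those of *Tcf7l2*, *Lef1* and *Nkd1*, and those of *Sp5* and *Dkk1*, and *Lef1* also overlapped with *Cdx1*, so the order of these neighbours is not resolved by the spread of the libraries. Within every one of the 6 libraries, however, *Tcf7* lay above *Tcf7l1*. Of the members, 7 of 10 passed the minimum over 4 libraries, and 8 of 10 over all 6, where *Dkk1* passed only through the D7 pair.

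**Figure D1:**
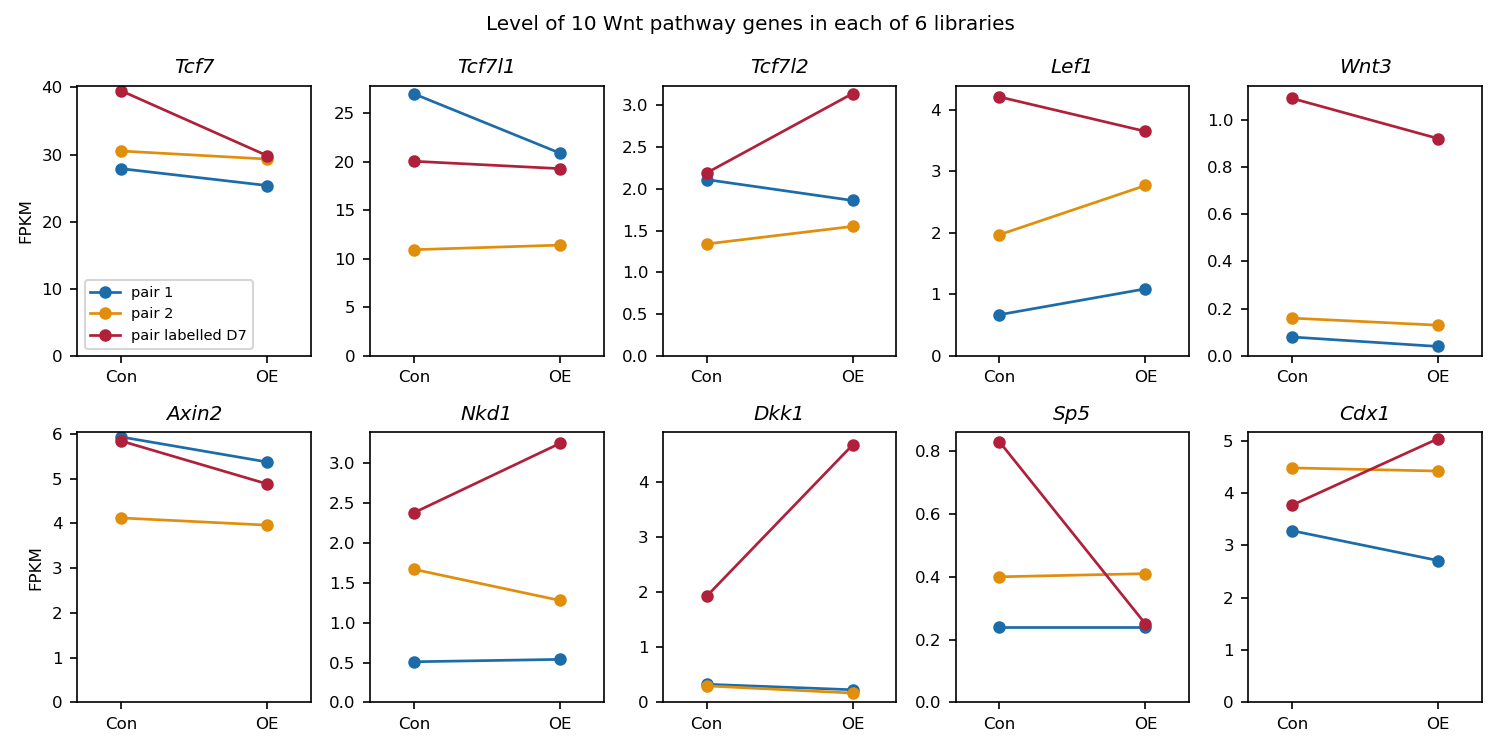
FPKM (vertical axes, each from 0) of the 10 members in Con and OE libraries, with a line joining the libraries of 1 pair. The D7 pair lay above the other 4 libraries for Tcf7l2, Lef1, Wnt3, Nkd1 and Dkk1, and for Tcf7l1 and Axin2 the lowest points are those of pair 2.

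The first comparison set the D7 pair against the other 4 libraries in edgeR's quasi-likelihood model, which also held a genotype term. It was made over the label alone, since the label's meaning is not given. *Dkk1* was the member that rose at an adjusted p under 0.05, and *Lef1*, *Nkd1*, *Tcf7l2* and *Wnt3* were also above all 4 other libraries in both D7 libraries. *Axin2*, *Tcf7*, *Tcf7l1*, *Cdx1* and *Sp5* overlapped with the other libraries. Thus 1 of 8 tested members was called, where 9.83% of all 13809 genes tested were called (6.77% higher and 3.06% lower), though *Dkk1* entered this test only through the D7 pair, where it was high, and of the 7 members that passed the minimum without that pair 0 were called. With no minimum, 2 of 10 members (*Dkk1* and *Wnt3*) were called, where 8.23% of 19423 genes were. Of all 10 members, 5 had both D7 libraries above the rest, where 23.1% of the genes with a count did. If libraries of a number are taken as pairs, the D7 side of this comparison is 1 pair, and edgeR called 251 genes in place of 1357 when each pair was summed to 1 sample (a background of 1.82%).

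*Wnt3* encodes a Wnt ligand that the mouse embryo needs for the primitive streak (chr11:103774175-103818021, build GRCm38.p6). It was at 0.08 and 0.16 FPKM in Con-1 and Con-2, at 0.04 and 0.13 FPKM in OE-1 and OE-2, and at 1.09 and 0.92 FPKM in Con-D7 and OE-D7. Both D7 libraries were thus far above the others, with 53 and 50 estimated counts against 1 to 7. The depth-scaled ratio of the summed counts, 103 against 18, was 11.6 (95% exact interval 7.0 to 20.4, covering counting error only). *Wnt3* did not reach the mean of 0.5 FPKM needed for testing. Without that minimum edgeR gave a log2 fold change of 3.47 (standard error 0.56, adjusted p = 0.018), a fit in which 8.23% of 19423 genes were called, and with the pairs summed as well a log2 fold change of 3.49 (adjusted p = 0.017, 3.41% of genes called).

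*Dkk1* encodes a secreted antagonist that binds the Lrp co-receptors and is itself a Wnt target (chr19:30545876-30549496). It was at 0.33 and 0.30 FPKM in Con-1 and Con-2, 0.23 and 0.17 FPKM in OE-1 and OE-2, 1.93 FPKM in Con-D7 and 4.68 FPKM in OE-D7. The D7 pair did not overlap with the other libraries, and its mean was 12.8-fold theirs (count ratio 12.6, interval 9.04 to 17.9). The log2 fold change was 3.59 (standard error 0.49, adjusted p = 0.016 in edgeR), 3.54 with no minimum on FPKM (adjusted p = 0.011), and 3.64 with each pair summed to 1 sample (adjusted p = 0.041). The call was lost with the pair as a random effect (log2 fold change 3.47, adjusted p = 0.19). It was also lost in edgeR without OE-1 or OE-2 (adjusted p = 0.054 each), where 429 of 13868 and 365 of 13784 genes were called. The log2 fold changes there were 3.43 and 3.30. Without Con-D7 or without OE-D7 the log2 fold change was 4.54 or 2.56, but the D7 side is then 1 library, which cannot test the call.

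*Nkd1*, which encodes a Dishevelled-binding inhibitor and is used as a readout of Wnt activity, lies on chr8:88521342-88594887. It was at 0.51 and 0.54 FPKM in libraries 1 of Con and OE, at 1.67 and 1.28 FPKM in libraries 2, and at 2.38 and 3.25 FPKM in the D7 pair. The D7 libraries were above the rest, but the distance between pairs 1 and 2 was itself large. Its log2 fold change of 1.50 (standard error 0.53, adjusted p = 0.13) did not pass in edgeR, and it passed in DESeq2 (1.51, adjusted p = 0.042), where 18.1% of the genes were called. It also passed in edgeR without Con-2 (1.98, adjusted p = 0.022), where 2533 of 13807 genes were called.

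*Axin2*, a scaffold of the destruction complex and the most widely used Wnt target (chr11:108917828-108950783), was at 5.93 and 4.12 FPKM in Con-1 and Con-2, 5.37 and 3.96 FPKM in OE-1 and OE-2, and 5.84 and 4.88 FPKM in Con-D7 and OE-D7. The D7 values lay inside the range of the others, and the highest of the 6 levels was 1.50 times the lowest, the narrowest range of the 10 members. The log2 fold change was 0.14 (standard error 0.24, adjusted p = 0.73 in edgeR). The 3 genes whose centred log2(FPKM + 0.5) values over the 6 libraries lay nearest to those of *Axin2*, out of 12557 genes with a mean of at least 1 FPKM, were *Polr1c* (Euclidean distance 0.05), *Rpl34* (0.07) and *Usf1* (0.09).

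Of the Tcf/Lef factors, *Lef1*, an activator and Wnt target (chr3:131110297-131224357), was at 0.67 and 1.09 FPKM in libraries 1 of Con and OE, 1.97 and 2.77 FPKM in libraries 2, and 4.21 and 3.65 FPKM in the D7 pair. All 3 pairs were apart, in the order of pair 1, pair 2 and the D7 pair, in both genotypes. The log2 fold change of the D7 pair was 1.26 (standard error 0.52, adjusted p = 0.17 in edgeR). In fits against pair 2 alone it passed (0.74, adjusted p = 0.029), as did *Nkd1* (0.97) and *Tcf7l2* (0.92), and against pair 1 alone *Lef1* (2.07), *Nkd1* (2.35) and *Tcf7* (0.31) passed, where 30.7% and 55.3% of all genes were called. If the numbers mark pairs, these fits set 1 pair against 1 and hold no replication of the pair, so they describe these libraries only. *Tcf7l2*, which encodes Tcf4 (chr19:55741797-55933659), was at 2.11, 1.34, 1.86 and 1.55 FPKM in Con-1, Con-2, OE-1 and OE-2, and at 2.19 and 3.14 FPKM in Con-D7 and OE-D7. Its Con-D7 level exceeded Con-1 by little, and the log2 fold change of 0.61 (standard error 0.30, adjusted p = 0.23) did not pass.

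*Tcf7*, which encodes Tcf1 (chr11:52246527-52283383), was at 27.9, 30.53, 25.39 and 29.33 FPKM in Con-1, Con-2, OE-1 and OE-2, and at 39.51 and 29.84 FPKM in Con-D7 and OE-D7. OE-D7 lay inside the range of the others, and the log2 fold change was 0.26 (standard error 0.12, adjusted p = 0.20). *Tcf7l1*, the repressor (chr6:72626371-72789045), was at 26.97 and 20.87 FPKM in libraries 1 of Con and OE, at 10.93 and 11.4 FPKM in libraries 2, and at 20.03 and 19.27 FPKM in the D7 pair. The D7 pair thus lay between pairs 1 and 2, with a log2 fold change of 0.14 (standard error 0.44, adjusted p = 0.85). Against pair 2 alone it passed as higher (0.86, adjusted p = 0.0021) and against pair 1 alone as lower (-0.32, adjusted p = 0.048), in these same fits. Of 6 naive genes that Tcf7l1 is known to repress, *Esrrb* and *Tfcp2l1* were called lower in the D7 pair (3.06% of all genes were). With each pair summed to 1 sample 0 of the 6 were called, but that fit called only 10 of 13809 genes lower. The summed level of the 6 was 543.7 to 580.2 FPKM in the D7 pair against 693.8 to 1033. *Nanog* lay inside the range of the others (320.14 and 327.31 against 261.23 to 470.91 FPKM).

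Of the other targets, *Cdx1* encodes a homeobox factor of the posterior embryo and gut (chr18:61018862-61036199). It was at 3.28 and 4.48 FPKM in Con-1 and Con-2, 2.71 and 4.42 FPKM in OE-1 and OE-2, and 3.77 and 5.04 FPKM in Con-D7 and OE-D7. The groups overlapped, and the log2 fold change was 0.24 (standard error 0.29, adjusted p = 0.61). *Sp5* encodes a zinc finger factor induced by Wnt (chr2:70474923-70477726), and its level was 0.24 FPKM in libraries 1 of both genotypes, 0.40 and 0.41 FPKM in Con-2 and OE-2, 0.83 FPKM in Con-D7 and 0.25 FPKM in OE-D7. Con-D7 was alone above the rest, with 31 estimated counts against 9 to 15, and without the minimum on FPKM the log2 fold change was 0.59 (standard error 0.54, adjusted p = 0.53).

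**Figure D2:**
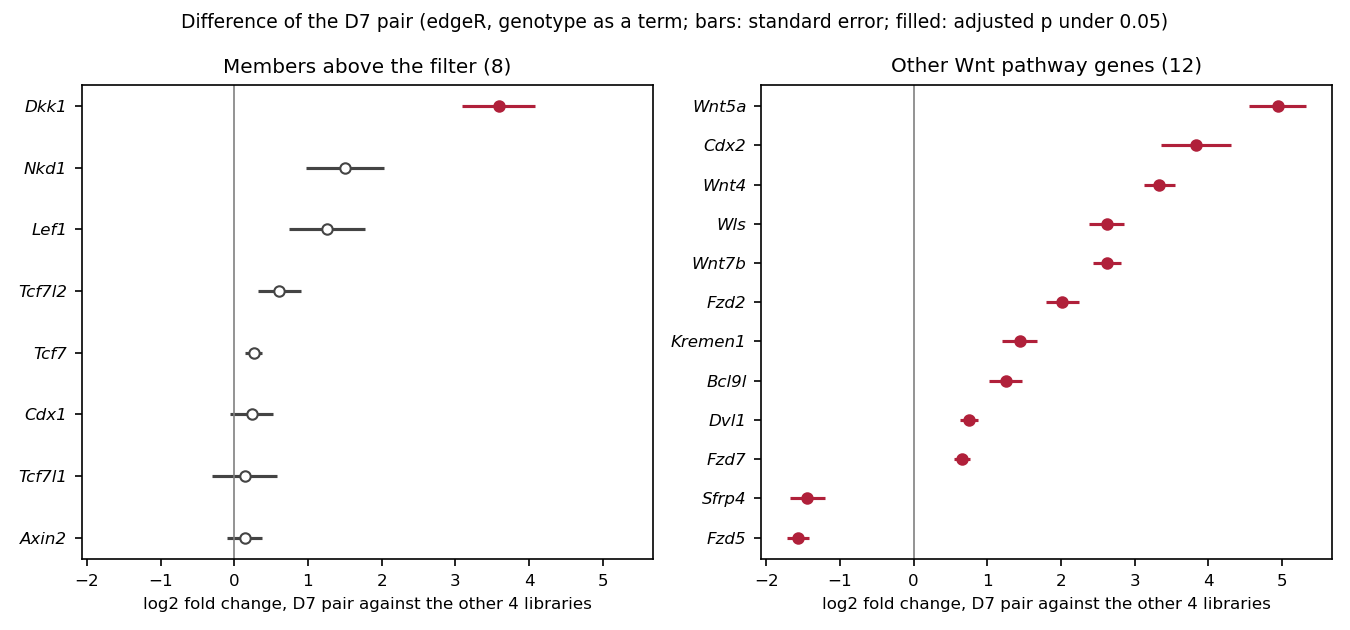
Log2 fold change of the D7 pair against the other 4 libraries (horizontal axes) with standard error bars, for the 8 members above the minimum and for 12 other Wnt pathway genes, with filled points at an adjusted p under 0.05 in edgeR. Dkk1 (3.59) is the filled point among the members, and among the other genes Fzd5 (-1.57) and Sfrp4 (-1.44) are those below 0.

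The other genes of the pathway were taken from lists of ligands, receptors, antagonists, the destruction complex, cofactors and targets, of which 91 genes outside the 10 members were in the table and 68 were tested. In the D7 pair 12 of them rose and 2 fell, beside 6.77% and 3.06% of all genes tested. Of these 68, 5 reached the minimum on FPKM only through the D7 pair, *Wnt5a* and *Cdx2* among them, and of the other 63, 10 rose and 2 fell. With each pair summed to 1 sample 4 of the 68 rose, *Wnt5a*, *Wnt4*, *Wls* and *Wnt7b*, where 241 of 13809 genes did. Of these 4, *Wnt5a* is the one let into the test only by the D7 pair. With Con-D7 or OE-D7 left out the D7 side is 1 library, so these fits cannot show whether the 14 calls hold without either one. Without OE-1, 7 were called, where 429 of 13868 genes were. Without OE-2, 7 were called, where 365 of 13784 genes were. Without pair 1, edgeR called 29 of 71 such genes (30.7% of all genes), and without pair 2 41 of 69 (55.3% of all genes).

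Of 19 Wnt ligand genes, *Wnt3* included, 6 passed the minimum on FPKM without the D7 pair and 3 of these rose. *Wnt4*, at 0.49 to 0.81 FPKM in the other libraries, was at 4.93 and 7.76 FPKM in Con-D7 and OE-D7 (log2 fold change 3.33, standard error 0.21, adjusted p = 0.0033 in edgeR). *Wnt7b* went from 1.22 to 1.73 FPKM in the others to 7.53 and 12.25 FPKM (2.62), and *Wnt5a*, a ligand mostly known for signalling without beta-catenin, from 0.03 to 0.10 FPKM to 1.46 and 2.34 FPKM (4.94). *Wnt5a* passed the minimum on FPKM only through the D7 pair. *Wls*, which carries Wnt proteins to the cell surface, was at 3.40 to 5.36 FPKM in the others and at 21.53 and 32.67 FPKM in the D7 pair (2.62, adjusted p = 0.0060). For each of these 4 genes OE-D7 was above Con-D7, with 1 library of each genotype and so no replicate check. The interaction term of the D7 difference called 0 of the 68 other Wnt genes in edgeR, where 0.0% of all genes were called. Of the marker sums above, those of trophectoderm, fibroblasts, primitive endoderm and neural genes were also higher in OE-D7. Those of ESC, primed epiblast and mesendoderm markers were lower there.

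**Figure D3:**
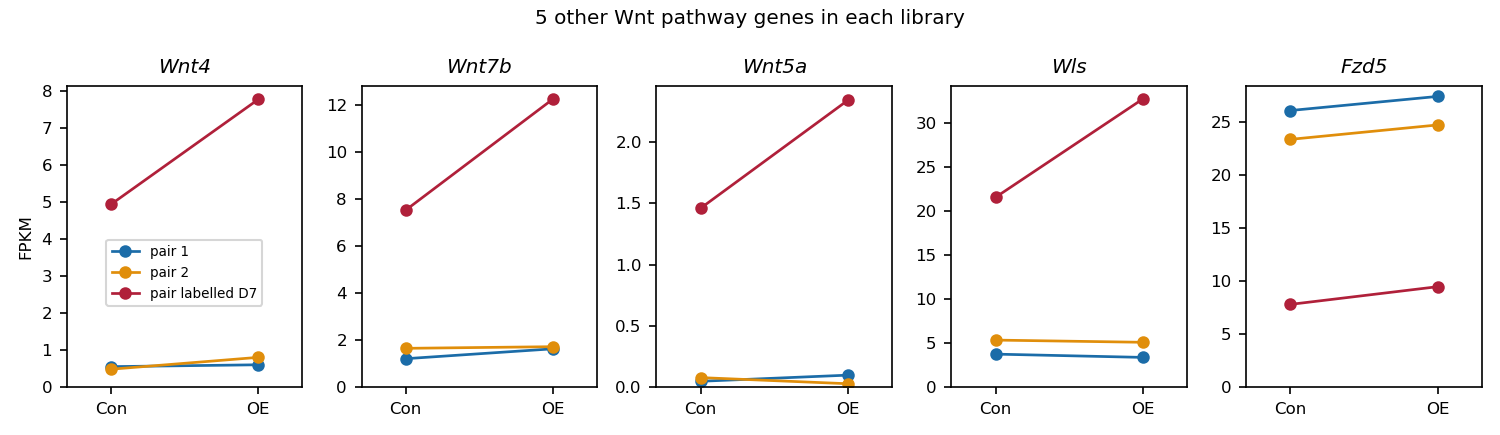
FPKM (vertical axes, each from 0) of the ligands Wnt4, Wnt7b and Wnt5a, the Wnt carrier Wls and the receptor Fzd5 in Con and OE libraries, with a line joining the libraries of 1 pair. The D7 pair is above the others for the first 4 genes and below them for Fzd5, which was at 7.83 and 9.50 FPKM there.

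Among 13 tested receptors, *Fzd2* rose (1.63 to 2.10 FPKM in the others, 6.55 and 9.04 FPKM in the D7 pair, log2 fold change 2.02) and *Fzd7*, another Frizzled gene, rose from 11.44 to 16.13 FPKM in the others to 23.39 and 20.32 FPKM (0.66). *Fzd5* fell from 23.39 to 27.44 FPKM to 7.83 and 9.50 FPKM (-1.57, standard error 0.15, adjusted p = 0.0062 in edgeR). The antagonists went both ways, with *Kremen1*, a Dkk1 receptor, rising with *Dkk1* (1.44) and *Sfrp4*, a secreted Wnt-binding protein, falling from 5.52 to 7.94 FPKM to 2.76 and 2.26 FPKM (-1.44), out of 11 tested. Inside the cell, *Dvl1* (0.75) rose among 5 Dishevelled and Naked genes, *Bcl9l* (1.25), a beta-catenin cofactor, among 11 cofactors, and 1 of 11 genes of the destruction complex. Of 5 tested genes of the R-spondin axis, 0 were called in edgeR. Of 14 tested common targets, *Cdx2* (3.83, 0.05 to 0.15 FPKM to 1.49 and 1.20 FPKM) and *Dkk1* rose, both let into the test only by the D7 pair. Of the 11 that passed the minimum without that pair, 0 were called in edgeR. *Cdx2* is also a trophectoderm gene and was counted in that marker list too.

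Within the genotypes, the D7 library was compared with libraries 1 and 2, as 1 library against 2, with the spread taken from all groups, so the lone D7 library is assumed to vary like the others. *Dkk1* entered these tests only through the D7 pair, where it was high, so its results here are no separate support. Without the minimum on FPKM its log2 fold changes were 2.51 in Con and 4.48 in OE. In Con, 0 of 8 members were called in edgeR (0.0217% of all genes were). *Dkk1* had the smallest p, with 6.13-fold the mean of the other Con libraries (log2 fold change 2.55, standard error 0.44, unadjusted p = 0.0035, adjusted p = 0.24 in edgeR), and *Lef1* was 3.19-fold higher (1.59, adjusted p = 0.65). In OE, 0 of 8 members were called either (0.21% of all genes were). The *Dkk1* level there was 23.4-fold that of OE-1 and OE-2 (4.52, standard error 0.45, adjusted p = 0.067 in edgeR), and the difference passed in DESeq2 (adjusted p = 2.8e-04, 4.74% of genes called) and limma-voom (adjusted p = 0.043, 1.09% called). *Nkd1* was 3.57-fold higher (1.84, adjusted p = 0.38) and *Tcf7l2* 1.84-fold (0.87, adjusted p = 0.43). Single libraries weighed on these fits. The log2 fold change of *Lef1* in Con was 2.59 without Con-2 and 1.01 without Con-1, with 1 library left on each side. In OE, *Dkk1* was at 4.74 without OE-1 and 4.34 without OE-2, and *Nkd1* at 1.38 and 2.53, again with 1 library left on each side. *Wnt3* was 9.08-fold higher in Con and 10.8-fold in OE, on 1 to 7 counts in the lower libraries.

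The size of the D7 difference was then compared between genotypes through an interaction term, which called 0 of the 8 members in edgeR (0.0% of all genes, and 1.44% once replicate pairs were blocked). *Dkk1* differed by 1.98 on the log2 scale, more in OE than in Con (standard error 0.66, unadjusted p = 0.036, adjusted p = 1 in edgeR, and 0.11 with the block). In this test too *Dkk1* was included only because the D7 pair raised its mean over the minimum on FPKM. *Lef1* differed by -0.67 (standard error 1.19), so it was less raised in OE, and *Nkd1* by 0.71 (standard error 1.21), neither past the test. *Sp5*, tested only without the minimum on FPKM, differed by -1.74 (standard error 0.97, adjusted p = 0.56 with the block). Without the block *Dkk1* was the tested member with an unadjusted p under 0.05 in edgeR, and with it *Lef1* (-0.72, unadjusted p = 0.045, adjusted p = 0.40) had one too.

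The level of several members also differed between libraries 1 and 2, and alike in both genotypes. *Lef1* in library 2 was 2.94-fold its level in library 1 in Con and 2.54-fold in OE, and *Nkd1* was 3.28-fold and 2.37-fold. These 2 members were over 2-fold higher in both genotypes, as were 6.34% of 13712 genes above the minimum. *Tcf7l1* went the other way, with library 2 at 0.41 of library 1 in Con and 0.55 in OE. *Axin2* was also lower in libraries 2, at 0.69 and 0.74 of libraries 1. In all, 6 members were higher and 4 lower in library 2 in both genotypes, so the 10 members did not move as 1 group. No source names a difference between libraries 1 and 2. They were treated as replicates, except in the fits that took the numbers as pairs or left libraries out.

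**Figure D4:**
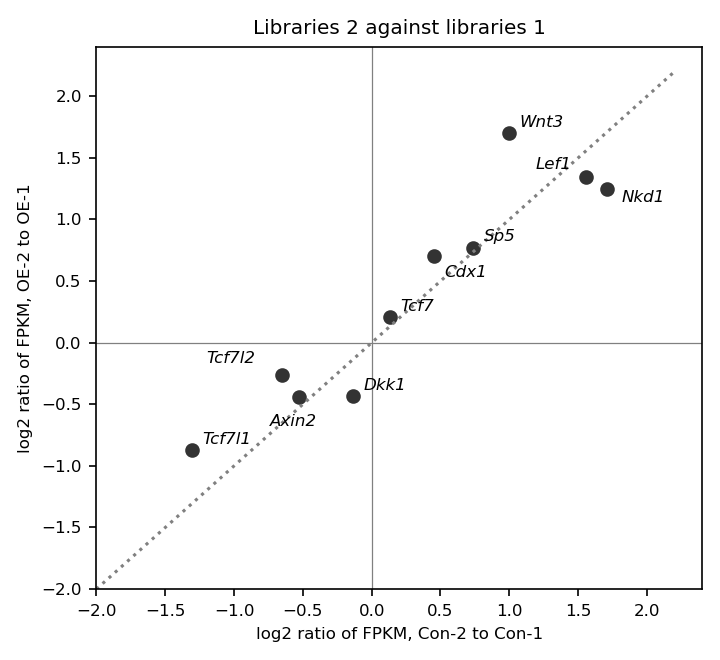
Log2 ratio of FPKM between libraries 2 and 1 in Con (horizontal axis) and in OE (vertical axis), 1 point per member, with a dotted line where both are equal. Each of the 10 points lies in the upper right or lower left part, from Tcf7l1 (0.41 of library 1 in Con) to Nkd1 (3.28-fold).

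The second comparison asked whether *Dppa3* overexpression went with a change in the pathway, first over libraries 1 and 2 (n = 2 each). Of the 7 members tested, 0 were called in edgeR, where 0.0% of 13494 genes were called, and 0 once replicate pairs were blocked, where 0.889% of the genes were called (120, of which 103 were higher). Without the block, 0 members passed even an unadjusted p of 0.05 in edgeR, nor did any pass in DESeq2 or limma-voom after adjustment. The median log2 fold change of the 7 was -0.15 in either fit, against -0.01 over all genes tested without the block and 0.00 with it. Exact permutation tests of single genes cannot go below 0.33 with 2 libraries a group.

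*Lef1* was the member with a positive log2 fold change in these fits, 0.49 with the block (adjusted p = 0.60) and 0.44 without it (standard error 0.70). It was above Con in pairs 1 and 2, by 1.63-fold and 1.41-fold, and below it in the D7 pair (0.87). *Axin2* (log2 fold change -0.14 with the block, adjusted p = 0.89) and *Tcf7* (-0.15, adjusted p = 0.72) were lower in OE in each of the 3 pairs. For *Axin2* the OE level was 0.91, 0.96 and 0.84 of Con in pair 1, pair 2 and the D7 pair, and for *Tcf7* it was 0.91, 0.96 and 0.76. *Wnt3* was likewise below Con in all pairs, at 0.50, 0.81 and 0.84, but on 1 and 3 counts in pair 1 and 7 and 7 in pair 2, which depth cannot tell apart. These 3 of 10 members compare with 8.32% of all genes with a count that were lower in OE in all pairs. None of the 10 was higher in all pairs, as 18.3% of the genes were.

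*Tcf7l1* was at 0.77, 1.04 and 0.96 of Con in pair 1, pair 2 and the D7 pair (log2 fold change -0.21 with the block, adjusted p = 0.68), and *Tcf7l2* at 0.88, 1.16 and 1.43 (-0.02, adjusted p = 0.99). *Cdx1* was lower in OE in pairs 1 and 2 (0.83 and 0.99) and higher in the D7 pair (1.34), with a log2 fold change of -0.18 (adjusted p = 0.91). *Nkd1* was at 1.06, 0.77 and 1.37 of Con (-0.23, adjusted p = 0.90). *Dkk1* was at 0.70 and 0.57 of Con in pairs 1 and 2 and at 2.42 in the D7 pair, and *Sp5* at 1.00, 1.02 and 0.30. The D7 pair has 1 library of each genotype, and its differences carry no replicate check. Over all 6 libraries, exact two-sided permutation tests of OE against Con gave p of 0.40 to 1 for the 10 members. They took the libraries as unpaired, where 0.10 is the smallest p possible. With pairs blocked over the same libraries, edgeR called 0 of 8 members and 1 of 13809 genes. *Tcf7* had the smallest p of the members there (log2 fold change -0.25, unadjusted p = 0.018, adjusted p = 0.47).

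**Figure D5:**
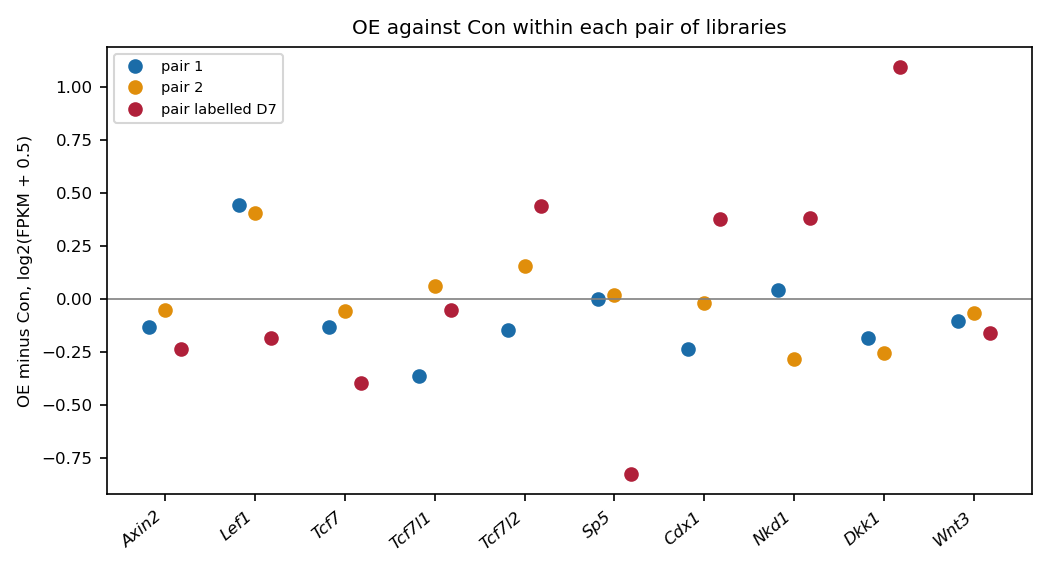
OE minus Con in log2(FPKM + 0.5) (vertical axis) for each member, with 1 point per pair of libraries. Axin2, Tcf7 and Wnt3 have all 3 points below 0, and the D7 points of Dkk1 (1.09) and Sp5 (-0.83) lie farthest from 0.

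Among the other Wnt genes, 0 of 63 tested were called in OE in edgeR, with or without the block, and their median log2 fold change was -0.05. At an unadjusted p the 6 with the smallest values were *Fzd7*, *Dvl2*, *Wnt11*, *Tle3*, *Lrp5* and *Wnt6*. *Fzd7* was at 14.6 and 16.13 FPKM in Con-1 and Con-2 and at 11.44 and 13.3 FPKM in OE-1 and OE-2, and the OE library was lower in the D7 pair too (23.39 and 20.32 FPKM). Its log2 fold change was -0.36 with the block (adjusted p = 0.088). *Dvl2*, a Dishevelled gene, was at 26.54 and 28.53 FPKM in Con-1 and Con-2, and at 22.33 and 22.35 FPKM in OE-1 and OE-2 (-0.34, adjusted p = 0.095 with the block). Neither passed the threshold.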

How the data were processed

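mRNA of 6 mouse ESC libraries was sequenced on BGISEQ-500. The authors used Bowtie2 on mm10 and RSEM, and their deposited table holds raw estimated counts. Beside them stand the authors' FPKM values, scaled by length and depth. HISAT and GRCm38.p6 are named in the submitters' processing notes instead, versions are not given, and the D7 count columns are headed as averages. Rows were matched by symbol, with places from RefSeq (GRCm38.p6).

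Estimated counts were rounded and tested with edgeR 4.0.16 (TMM, quasi-likelihood F test, R 4.3.3) over genes averaging 0.5 FPKM or more, 13494 for 4 libraries and 13809 for 6, with Benjamini-Hochberg adjustment over all of them and a threshold of 0.05. Scripts were tested on simulated data. DESeq2 1.42.0, limma 3.58.1, other scalings and minimums, and leaving out libraries were alternatives. Pseudocounts were 0.5 and 0.1. Intervals of count ratios are 95% exact ones.

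Same-number Con and OE libraries departed from their group means together, with correlations of 0.881, 0.756 and 0.889 over 12565 genes. The numbers were taken as pairs for that reason. Other combinations gave -0.034 or below, which centring on the group means largely forces and which adds no separate evidence. No source states that same-number libraries were handled together. The members and gene lists were chosen with earlier results of these data known. Named were all 10 members, the 12 and 6 other listed Wnt genes with the smallest p in the D7 and OE comparisons, and marker genes behind list counts. Of 92 other listed genes, 91 were in the table. The genes nearest in pattern to *Tcf7l1* are not reported here.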

Additional observations from a re-analysis of the deposited data

Results flagged for a closer look

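*Lef1*, *Cdx1* and *Dkk1* went one way from Con to OE in pairs 1 and 2 and the other way in the pair labelled D7. On the log2(FPKM + 0.5) scale OE minus Con in the D7 pair was -0.18 for *Lef1*, against 0.44 and 0.40 in pairs 1 and 2. It was 0.38 for *Cdx1*, against -0.24 and -0.02, and 1.09 for *Dkk1*, against -0.19 and -0.26. In edgeR's test of the difference itself, *Lef1* (-0.67), *Cdx1* (0.57) and *Dkk1* (1.98) each had an adjusted p of 1, and with replicate pairs blocked *Dkk1* had 0.11 and *Lef1* 0.40.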

How the results depend on the processing

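Of the comparisons of single members under alternatives, 540 kept direction and call, 36 turned direction, 17 gained a call and 5 lost it. With OE against Con, 0 members were called in every fit run, while the count over all genes went from 0 to 120 with the replicate block (34 with it in DESeq2, 121 in limma-voom, 32 with no minimum, 1 over 3 pairs) and to 2 in DESeq2. *Tcf7l2* turned to 0.0053 and 0.0116 in limma on log2 FPKM plus 0.5 and 0.1, 0.0084 on total counts, 0.15 over 3 blocked pairs and 0.13 over 6 libraries, *Cdx1* to 0.0072 and 0.0118 in these last fits, and *Nkd1* to 0.0396 over 3 blocked pairs.

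For the D7 pair, 2 members were called in DESeq2 (with *Nkd1*) and with no minimum (with *Wnt3*), also for summed pairs, and 0 with the pair as a random effect. Over all genes 1357 became 2494 in DESeq2, 235 with the random effect, 251 for summed pairs and 662 for these with no minimum. Within Con 3 genes became 326 in DESeq2, 0 in limma and 15 with no minimum, where *Tcf7l1* turned to -0.0166. Within OE 29 became 654 in DESeq2, 151 in limma-voom, 104 in limma on FPKM plus 0.5 and 78 with no minimum, and 1 member was called in the first 3. The difference between genotypes went from 0 genes to 2 in DESeq2, 199 with the replicate block and 188 with it and no minimum. The block changed no other call of a member. The causes were not tested.

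Leaving out libraries gave 0 to 6 members and 0 to 7598 genes for D7 (most without pair 2), 0 to 1 and 0 to 928 in Con, 0 to 2 and 28 to 1406 in OE, 1 to 90 genes for OE against Con, and 0 to 8 for the difference. For OE against Con *Axin2* ranged from -0.43 to 0.19, *Lef1* from -0.23 to 1.45, *Tcf7l1* from -0.85 to 0.59, *Tcf7l2* from -0.37 to 0.38, *Cdx1* from -0.52 to 0.11 and *Nkd1* from -0.96 to 0.75. For D7 *Axin2* ranged from -0.11 to 0.46, *Tcf7l1* from -0.32 to 0.86 and *Cdx1* from -0.047 to 0.53. In Con these were -0.074 to 0.55, -0.51 to 0.92 and -0.21 to 0.12. In OE *Axin2* ranged from -0.16 to 0.36 and *Tcf7l1* from -0.15 to 0.80. For the difference, *Axin2* ranged from -0.47 to 0.16, *Tcf7l1* from -0.66 to 0.77 and *Nkd1* from -0.29 to 1.38. Depth limits most the members with low counts in a library (*Sp5* in all 6, *Dkk1* and *Wnt3* outside D7, and *Lef1* and *Nkd1* in pair 1).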
